A study of Homo sapiens with 9 samples.

Results

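The plakin genes examined here were PLEC, DST, MACF1, DSP, EVPL and PPL. They were chosen by name as the genes whose products tie intermediate filaments to other cell structures, and all 6 were found among the 60664 genes of the count table. The rule for choosing them uses no measured value.

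Plakins are very long proteins that act as cytolinkers. Their ends carry different binding modules: a plakin domain that reaches membrane junctions, in some members a calponin-homology pair that binds actin, in others a GAS2-related module that binds microtubules, and in several members plakin repeats that hold intermediate filaments. They are best known from skin, where they anchor keratin at desmosomes and hemidesmosomes, but PLEC, DST and MACF1 are also used in many cells without such junctions.

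HEK293T cells, which derive from human embryonic kidney, were given a single heat stress and their RNA was sequenced, and the study asked what happens to intermediate filaments under heat. NC cells were untreated (2 libraries), H1 cells were held at 43 °C for 1 h (2 libraries), and H1R1, H1R6 and H1R18 cells were held at 43 °C for 1 h and then returned to 37 °C for 1 h (2 libraries), 6 h (2 libraries) and 18 h (1 library). All libraries came from the same line. The labels call the NC cells wild-type and give no genotype for the heated cells. Nothing in the labels says that replicates were separate cultures, so p-values measure the spread between these libraries, which may be technical only.

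The 9 libraries held 3814195 to 6221613 counts, and levels below are CPM, counts scaled to library size after TMM normalization, unless a count is named. Of the markers of the line, all 6 had counts (summed level 369 to 439 CPM over the libraries), although PAX8 never exceeded 1.06 CPM. The 5 keratinocyte markers summed to at most 1.41 CPM in any library, with KRT5 at 0 throughout. Fibroblast markers summed to 50.4 to 74.4 CPM, mostly COL1A1, and muscle markers to at most 2.12 CPM. Changes are log2 fold changes ± SE from edgeR's quasi-likelihood test over all 21139 genes that passed the filter on low counts, and a gene was called at an adjusted p under 0.05. All 6 plakin genes were tested, but EVPL entered on 1 of 9 libraries only, an H1 library, and so passed through the condition where it was high.

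The plakin transcripts fell into 2 classes by abundance. PLEC, DST, MACF1 and DSP each had between 1137 and 3109 counts in every library, whereas PPL had 16 to 107 and EVPL 0 to 14. Divided by the merged exon length of each gene, the order of levels was the same in all 5 conditions: DSP was highest, followed by PLEC, MACF1, DST, PPL and EVPL, and neighbours in that order did not overlap between libraries. In NC cells the means per kilobase of exon were 30.2 ± 2.83 CPM for DSP, 25.2 ± 3.24 for PLEC, 8.65 ± 0.249 for MACF1, 5.91 ± 0.510 for DST, 0.827 ± 0.403 for PPL and 0.0631 ± 0.0109 for EVPL (SD, n = 2). The place of DST depends on the length used, since its merged exons span 48.1 kb but its longest annotated coding transcript 22.4 kb, and for MACF1 these lengths are 42.7 and 24.8 kb. Per kilobase of the longest transcript, an alternative chosen after seeing the data, DST averaged 14.7 CPM and MACF1 13.9 CPM at H1R6, so this pair changed order there.

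The genes differ as much in their layout (GRCh38). DST covers 496.84 kb on chromosome 6 (56457987 to 56954830, minus strand) with 109 merged exons, and MACF1 covers 405.86 kb on chromosome 1 (39081316 to 39487177, plus strand) with 113. The others are compact: PLEC spans 61.6 kb on chromosome 8 (143915153 to 143976734, minus strand), DSP 45.1 kb on chromosome 6 (7541617 to 7586714, plus strand), PPL 78.2 kb on chromosome 16 (4882507 to 4960741, minus strand) and EVPL 22.8 kb on chromosome 17 (76004502 to 76027306, minus strand). DSP and EVPL each have 21 merged exons, PPL 23 and PLEC 44.

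**Figure D1:**
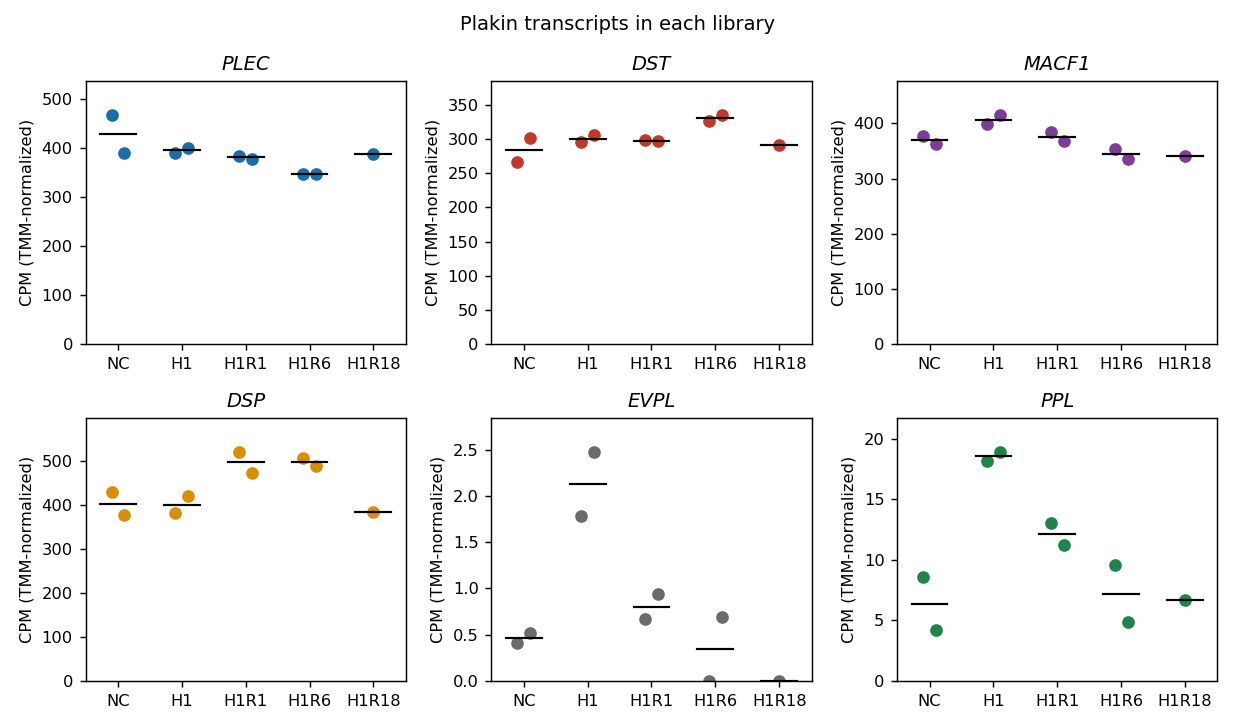
CPM after TMM normalization of each plakin gene (y axis, from 0, a scale of its own in each panel) in every library, by condition in the order of the experiment; points are libraries and bars are condition means. PPL was highest in the 2 H1 libraries (18.2 and 18.9 CPM), and DSP was higher in the 4 H1R1 and H1R6 libraries (473 to 519 CPM) than in any other library (376 to 429 CPM).

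At the end of the heat hour, PPL was the plakin transcript that changed. PPL encodes periplakin, which associates with desmosomes and with vimentin and keratin filaments. It had 18.2 and 18.9 CPM in H1 libraries, against 8.56 and 4.17 CPM in NC libraries, which are 102 and 107 counts against 42 and 16. Both H1 libraries lay above both NC libraries, although the NC libraries differed from each other by more than the H1 libraries did. The log2 fold change was 1.50 ± 0.31 (95% interval 0.86 to 2.14, fold 2.83), and edgeR's adjusted p was 0.00248. This call rested in part on the second NC library: without it the change was 1.12 and the adjusted p 0.0762, and without the first NC library the change was 2.15. The adjusted p ranged from 0.000102 to 0.0762 over all alternatives. In these bulk libraries more RNA per cell and more cells that hold it cannot be told apart.

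PPL was 1 of 6 plakin genes called higher at H1 and 0 were called lower, where 3.43% of all tested genes were called higher and 1.77% lower. The median change of the 6 members was 0.11, or 0.08 without EVPL, against −0.01 over all genes. MACF1 had 399 and 415 CPM in H1 libraries, against 377 and 362 CPM in NC libraries, which do not overlap, but the change of 0.14 ± 0.07 had an adjusted p of 0.322 in edgeR. MACF1 encodes the actin and microtubule crosslinker also called ACF7. For DSP, DST and PLEC the H1 and NC libraries overlapped, with changes of −0.01, 0.08 and −0.11.

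PPL lay closer to NC in each condition of the recovery. At H1R1 it had 13 and 11.3 CPM, against 8.56 and 4.17 CPM in NC, a change of 0.90 ± 0.33 with an adjusted p of 0.0502 in edgeR, just outside the threshold. It crossed the threshold under some alternatives (adjusted p between 0.0167 and 0.366 over all of them). At H1R6 it had 9.54 and 4.87 CPM and at H1R18 6.67 CPM, and both conditions overlapped the NC libraries (changes of 0.14 ± 0.34 and 0.03 ± 0.45). The intervals of these last differences reach from −0.57 to 0.84 and from −0.90 to 0.95, so at H1R18 a change as large as that at H1R1 could not be told apart from none at this depth. No step between successive conditions passed the test for PPL: H1R1 against H1 gave −0.60 ± 0.28 (adjusted p = 0.186) and H1R6 against H1R1 −0.76 ± 0.31 (adjusted p = 0.0978, both edgeR).

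The count of PPL has a neighbour to be read with it. UBN1, which encodes a subunit of a histone chaperone complex for histone H3.3, lies on the other strand of chromosome 16 (4846665 to 4882401) and ends 105 bases from the end of PPL. Both genes are transcribed towards each other, and the counts were made without strand, so that reads running past the end of UBN1 cannot be told apart from reads of PPL. UBN1 had 145 and 135 CPM in H1 libraries, against 101 and 113 CPM in NC libraries (0.39 ± 0.10, edgeR adjusted p = 0.0180). It was higher again at H1R1, with 176 and 154 CPM against the same NC libraries (0.63 ± 0.10, adjusted p = 2.32e-05), and at H1R6, with 137 and 164 CPM (0.49 ± 0.10, adjusted p = 0.00164, both edgeR). The mean of UBN1 was highest at H1R1, although the H1R1 and H1R6 libraries overlapped (−0.14 ± 0.10 for H1R6 against H1R1, adjusted p = 0.362 in edgeR). The ratio of PPL to UBN1 counts was 0.0850 and 0.0369 in NC libraries, 0.126 and 0.140 in H1 libraries, 0.0740 and 0.0728 in H1R1 libraries, 0.0698 and 0.0298 in H1R6 libraries, and 0.0552 in the H1R18 library. The ratio was highest in both H1 libraries, but their 95% exact intervals (0.0920 to 0.168 and 0.104 to 0.188) overlap that of the first NC library (0.0517 to 0.133). The part of UBN1 reads in the PPL count was not tested. SEC14L5 overlaps PPL by 2412 bases on the other strand and had 46 counts over all 9 libraries.

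**Figure D2:**
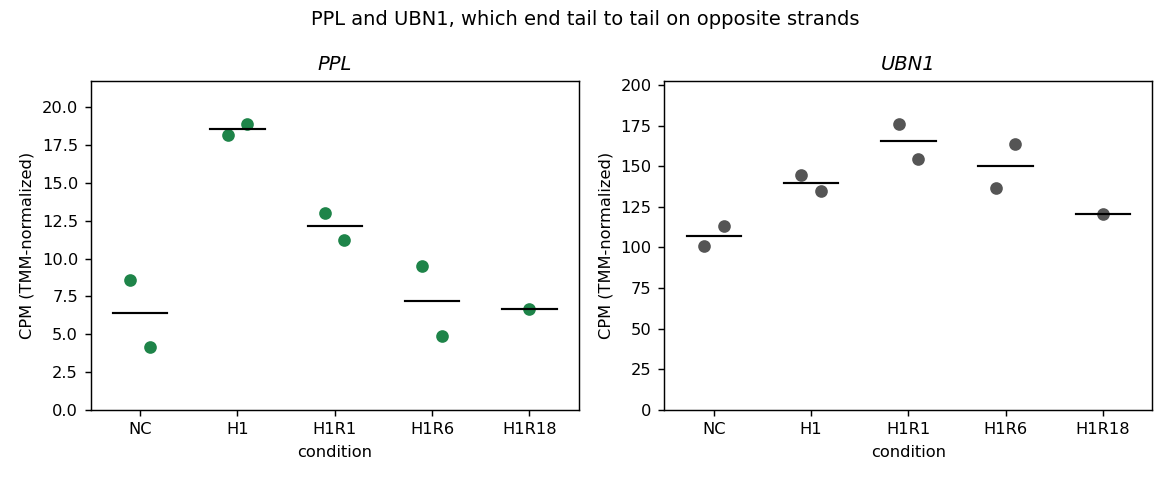
CPM after TMM normalization of PPL (left) and of its tail-to-tail neighbour UBN1 (right) in each library (points) with the condition means (bars), each axis from 0. PPL was highest at H1 (18.2 and 18.9 CPM), whereas UBN1 reached its highest mean at H1R1 (176 and 154 CPM).

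EVPL encodes envoplakin, the partner of periplakin in the cornified envelope of keratinocytes. It had 10 and 14 counts in H1 libraries, against 2 and 2 in NC libraries. The H1R1 libraries had 4 and 4 counts, the H1R6 libraries 0 and 4, and the H1R18 library 0. The H1 libraries were above all others, but edgeR's test did not pass (2.15 ± 1.19, adjusted p = 0.366). Counted as read pairs, 12 pairs at H1 against 2 in NC gave a ratio of 4.65 after scaling (exact 95% interval 1.04 to 42.8, counting error only), which is a description, since EVPL was tested only because it was high at H1. At H1R6 and H1R18 EVPL was at or near 0 in both conditions compared, and no fold is given. A count of 0 at H1R18 allows up to 0.770 CPM. TEN1-CDK3, which overlaps EVPL by 1498 bases on the other strand, had 12 and 8 counts in H1 libraries, against 6 and 6 in NC libraries, and its part in the EVPL count was not tested.

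DSP was higher than in NC during the first hours of recovery. It encodes desmoplakin, the protein that fastens keratin or vimentin filaments to desmosomes. At H1R1 it had 519 and 473 CPM, against 429 and 376 CPM in NC libraries, and the conditions did not overlap. The change was 0.30 ± 0.08 (95% interval 0.15 to 0.46, fold 1.23) with an edgeR adjusted p of 0.00442. The call was lost without the second NC library (0.22, adjusted p = 0.0834) or without the first H1R1 library (0.23, adjusted p = 0.0980), in a range of 0.000807 to 0.0980 over all alternatives.

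Against the end of the heat hour the difference was the same size. DSP had 519 and 473 CPM in H1R1 libraries, against 381 and 420.0 CPM in H1 libraries, a change of 0.31 ± 0.08 (edgeR adjusted p = 0.00619). At H1 itself DSP had not moved detectably from NC (−0.01 ± 0.08, 95% interval −0.16 to 0.15). The call between H1R1 and H1 was lost without the first H1 library (0.24, adjusted p = 0.165) or without the first H1R1 library (0.24, adjusted p = 0.133), in a range of 0.00254 to 0.165. DSP was 1 of 6 plakin genes called higher in this step and 0 were called lower, where 6.35% of all tested genes were called higher and 5.08% lower.

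DSP was also 1 of 6 members called higher at H1R1 against NC, and 0 were called lower, where 10.7% of all tested genes were called higher and 9.53% lower. With so many calls among all genes, a single member is close to the background share. The median change of the 6 members was 0.18, or 0.07 without EVPL, against −0.01 over all genes. PLEC had 385 and 378 CPM at H1R1, against 467 and 389.6 CPM in NC libraries, a change of −0.17 ± 0.08 with an adjusted p of 0.121 in edgeR. This passed without the second NC library (−0.29, adjusted p = 0.0115) and with scaling by library size alone (−0.23, adjusted p = 0.0274), but without the first NC library it was −0.03 (adjusted p = 0.860), in a range of 0.0115 to 0.860. DST (298 and 297 CPM) and MACF1 (384 and 367 CPM) overlapped their NC libraries, with changes of 0.07 ± 0.08 and 0.02 ± 0.07.

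After 6 h of recovery DSP was still higher and PLEC was lower. DSP had 507 and 487 CPM in H1R6 libraries, against 429 and 376 CPM in NC libraries (0.30 ± 0.08, 95% interval 0.15 to 0.46, edgeR adjusted p = 0.0106). PLEC encodes plectin, the widely expressed cytolinker that binds vimentin, actin and hemidesmosomes. It had 348 and 347 CPM in H1R6 libraries, against 467 and 389.6 CPM in NC libraries, so that both H1R6 libraries lay below every other library of the series. The change of PLEC was −0.30 ± 0.08 (95% interval −0.46 to −0.15, fold 0.810, edgeR adjusted p = 0.0111).

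These 2 calls were 1 of 6 members higher and 1 of 6 lower, where 3% of all tested genes were called higher and 4.03% lower. Over the 6 members the median change was 0.02, or 0.14 without EVPL, against −0.01 over all genes. Both calls depended on single libraries. PLEC lost its call without the first NC library (−0.15, adjusted p = 0.353), and without the first or the second H1R6 library (−0.28 in each case, adjusted p = 0.115 and 0.141), in a range of 0.00144 to 0.353. DSP lost its call without the second NC library (0.23, adjusted p = 0.125) or the first H1R6 library (0.30, adjusted p = 0.0812), in a range of 0.000390 to 0.125.

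DST moved the other way from PLEC at H1R6 without passing the test. DST encodes dystonin, whose isoforms serve epithelium, muscle and neurons. It had 326 and 335 CPM in H1R6 libraries, against 267 and 302 CPM in NC libraries, and these H1R6 libraries were the highest of all 9. The change was 0.22 ± 0.08 with an adjusted p of 0.0813 in edgeR, and 0.0202 to 0.369 when processed otherwise. Without the second NC library it was 0.32 with an adjusted p of 0.0202, and without the first it was 0.15 with an adjusted p of 0.369. MACF1, the closest relative of DST among the members, had 354 and 336 CPM at H1R6, against 377 and 362 CPM in NC libraries (−0.10 ± 0.07, adjusted p = 0.488).

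The step from H1R1 to H1R6 itself held 0 called members in edgeR (1 of 6 at an unadjusted p under 0.05, PPL, and 0 in DESeq2), where 6.43% of all tested genes were called higher and 8.93% lower. Over the 6 members the median change was −0.13, or −0.12 without EVPL, against −0.01 over all genes. DSP differed by 0.00 ± 0.08 between these conditions (95% interval −0.15 to 0.16).

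After 18 h of recovery DSP was back within the NC range. In the H1R18 library it had 383 CPM, between the 429 and 376 CPM of the NC libraries (−0.07 ± 0.09, edgeR adjusted p = 0.706). Compared with H1R6, where it had 507 and 487 CPM, the H1R18 library was lower by −0.37 ± 0.09 (95% interval −0.57 to −0.18, fold 0.771, edgeR adjusted p = 0.00678). This call held under every alternative that kept the H1R18 library, with adjusted p between 0.000194 and 0.0467. H1R18 was a single library, and its spread was taken to be that of the other conditions. DSP was the 1 of 6 members called lower in this step and 0 were called higher, where 7.65% of all tested genes were called lower and 6.28% higher. The median change of the 6 members was −0.14, or −0.11 without EVPL, against −0.03 over all genes.

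Against NC, 0 of 6 members were called at H1R18 in edgeR, 0 had an unadjusted p under 0.05, and DESeq2 called 0, where 4.58% of all tested genes were called higher and 6.43% lower. Their median change was −0.09, or −0.07 without EVPL, against −0.03 over all genes. PLEC had 388 CPM (−0.14 ± 0.09), DST 292 CPM (0.04 ± 0.09) and MACF1 341 CPM (−0.12 ± 0.09). The PLEC and MACF1 values of H1R18 lay just below both NC libraries.

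**Figure D3:**
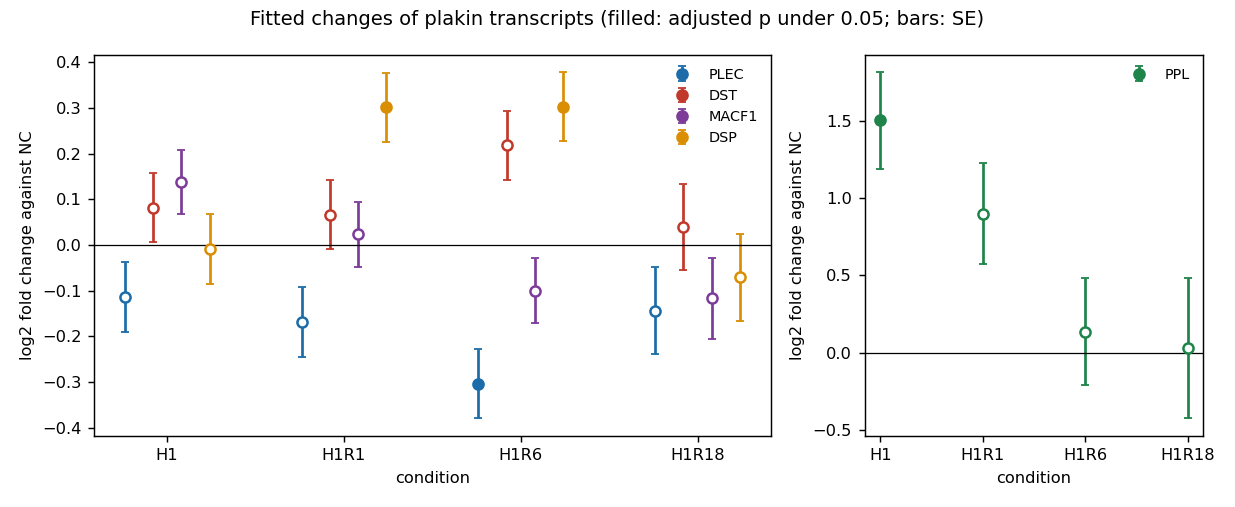
Fitted log2 fold change against NC (y axis) of PLEC, DST, MACF1 and DSP (left) and of PPL (right, on a wider scale) at H1, H1R1, H1R6 and H1R18; bars are SE, filled points have an adjusted p under 0.05 in edgeR and open points do not. Filled points are PPL at H1 (1.50), DSP at H1R1 and H1R6 (0.30 each) and PLEC at H1R6 (−0.30). All 4 comparisons share the same 2 NC libraries, and EVPL is left out because of its low counts.

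The ratio of 2 plakin transcripts within a library does not depend on how libraries are scaled. There were 0.918 and 0.965 reads of DSP per read of PLEC in the NC libraries, 0.974 and 1.05 in the H1 libraries, 1.35 and 1.25 in the H1R1 libraries, 1.46 and 1.40 in the H1R6 libraries and 0.987 in the H1R18 library. The 4 H1R1 and H1R6 libraries were above the other 5, and the lowest exact 95% interval among the 4 began at 1.139, while the highest among the others ended at 1.136. For DST per read of MACF1 the ratio was 0.919 and 0.997 at H1R6, against 0.708 and 0.833 in NC libraries, and it was 0.741 and 0.736 in H1 libraries, 0.776 and 0.807 in H1R1 libraries, and 0.856 in the H1R18 library. The H1R6 libraries were the highest here too, but the interval of the first (0.839 to 1.01) overlapped that of the second NC library (0.744 to 0.931). With 2 libraries against 2, an exact permutation test of such a ratio could not go below p = 0.333, so these ratios are a description. DSP was called higher and PLEC lower at H1R6 from the same libraries, so their ratio is no separate support for those calls. The intervals cover counting error only, and replicates differed by more than that. Ratios of other plakin pairs are not reported here.

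**Figure D4:**
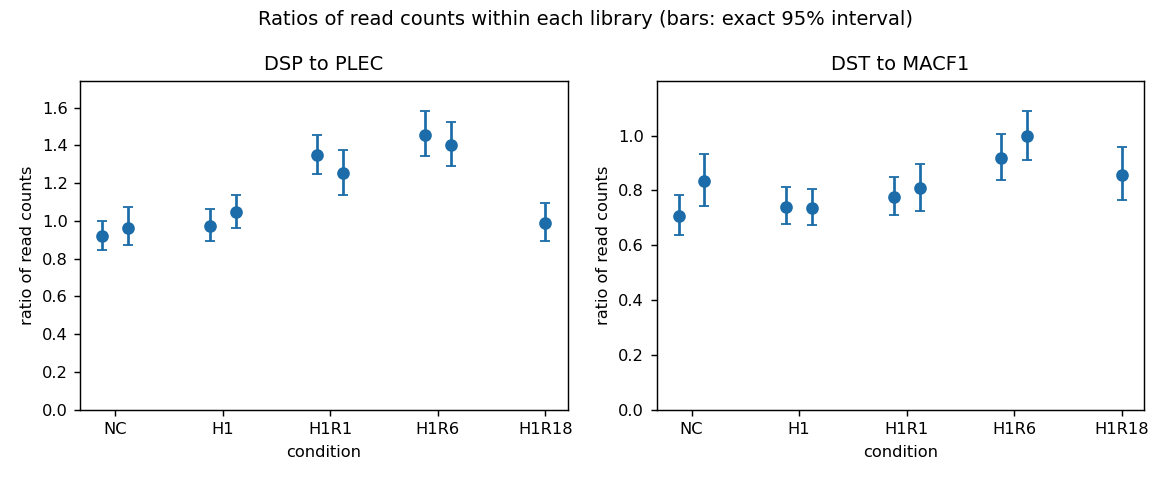
Reads of DSP per read of PLEC (left) and of DST per read of MACF1 (right) in each library (points), by condition in the order of the experiment, with exact 95% intervals computed on read pairs (bars, counting error only) and axes from 0. DSP to PLEC was 1.25 to 1.46 in the H1R1 and H1R6 libraries and 0.918 to 1.05 in the others.

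Across the 9 libraries PLEC and DST ran opposite to each other (Pearson r = −0.926 of log2 CPM, as a description over libraries that share conditions and scaling). The opposition was present within the NC pair, where the first library had 467 CPM of PLEC and 267 of DST, and the second 389.6 and 302. MACF1 ran with PPL (r = 0.833), and the other pairs lay between −0.427 and 0.759. Among the 11746 other genes that averaged log2 CPM 3 or more, the 3 most like DSP over the 9 libraries were RNF167 (r = 0.978), GTF3C2 (0.973) and PCDH7 (0.957). For PLEC they were RAB39B (0.978), AFF3 (0.944) and CPS1 (0.928), for DST PANX1 (0.929), CA8 (0.929) and RNF113A (0.897), for MACF1 PIGT (0.962), RFTN2 (0.957) and TOP2B (0.954), and for PPL MIR23AHG (0.946), PSMC3IP (0.945) and ANKRD18B (0.923). For EVPL, whose counts are too sparse for a likeness to be read, the leading gene was ACAD9-DT (0.953).

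DST and MACF1 can be set beside other long genes. Of 3221 tested genes with an annotated span of at least 100 kb, 295 were called higher and 489 lower at H1R1 against NC (9.16% and 15.2%), with a median change of −0.13, against −0.01 over all genes. At H1R6 these genes had 71 calls higher and 230 lower (2.2% and 7.14%, against 3% and 4.03% of all genes), and a median of −0.08. The changes of DST (0.07 after 1 h of recovery and 0.22 after 6 h) were above both medians, and those of MACF1 (0.02 and −0.10) were on either side of them. The middle 50% of the long genes ran from −0.47 to 0.15 at H1R1 and from −0.34 to 0.13 at H1R6, so DST at H1R6 lay above it.

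The bases before the starts of the members are shown because DSP moved in recovery and DST held the single heat-shock-element match among the windows searched. In the RefSeq table (GRCh38.p14) DSP had 1 start, DST 3 and MACF1 3, giving 7 windows of 250 bases, while PLEC, EVPL and PPL were not searched. Motifs were searched on both strands. The heat shock element was searched in the forms GAANNTTC and TTCNNGAA, each of which reads the same on both strands. The AP-1 site was searched as TGANTCA. The GC box was searched as GGGCGG, and matches may overlap each other. Bases that the annotation of the count table places in an exon are left out below, and GC boxes and heat shock elements, on either strand, are in capitals.
DSP, chr6:7541421-7541616, plus strand: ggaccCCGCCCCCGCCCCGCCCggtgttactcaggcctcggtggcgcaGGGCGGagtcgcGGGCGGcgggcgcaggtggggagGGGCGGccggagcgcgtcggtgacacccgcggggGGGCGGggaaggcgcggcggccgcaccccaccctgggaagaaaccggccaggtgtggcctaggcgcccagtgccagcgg
DST, first start, chr6:56954831-56955080, minus strand: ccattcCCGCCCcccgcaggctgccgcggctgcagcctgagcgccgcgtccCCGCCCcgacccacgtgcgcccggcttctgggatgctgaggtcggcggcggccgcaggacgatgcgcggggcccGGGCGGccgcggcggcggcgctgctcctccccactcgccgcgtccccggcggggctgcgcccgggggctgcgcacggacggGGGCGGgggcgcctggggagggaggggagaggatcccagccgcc
DST, internal start, chr6:56851952-56852155, minus strand: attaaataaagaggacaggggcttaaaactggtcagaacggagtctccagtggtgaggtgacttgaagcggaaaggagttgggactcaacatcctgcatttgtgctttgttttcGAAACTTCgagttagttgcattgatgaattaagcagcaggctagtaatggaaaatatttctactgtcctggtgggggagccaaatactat

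The DSP stretch held 7 GC boxes in 196 bases and was 80.6% G or C, and the first DST stretch held 4 in 250 bases at 82.8%. A MACF1 window that is not printed (chr1:39408823-39409072, plus strand) held 6 in 250 bases at 78.0%, and MACF1 was called in no comparison. A GC box was present in 42.6% of all 35116 windows, whose median G and C content was 58%. DSP had no match to either form of the heat shock element or to the AP-1 letters in its window. The internal DST window held 1 heat shock element of the form GAANNTTC at position −136 from the start, a form that 5.78% of all windows held. In the 7 windows of DSP, DST and MACF1 the form TTCNNGAA was found in 0 (6.62% of all) and the AP-1 letters in 0 of 7 (6.57% of all). Counts per gene do not tell which start was used, and a match or its absence says nothing about binding.

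Of the remaining relatives of the family, EPPK1, which encodes epiplakin, a protein of plakin repeats that binds keratin and vimentin, was called against NC at H1R18 and in none of the 3 earlier conditions. It had 72.9 CPM in the H1R18 library, against 51.0 and 44.4 CPM in NC libraries (0.61 ± 0.16, edgeR adjusted p = 0.0120) and against 50.2 and 46.9 CPM at H1R6 (0.59 ± 0.16, adjusted p = 0.0111). EVPLL, an envoplakin-like gene, had 0 counts in all 9 libraries.

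The partners of the plakins at junctions and filaments were counted in lists. Of 14 desmosome genes 8 were tested, and at H1R1 0 were called higher and 2 lower, JUP (plakoglobin, which links cadherins to DSP) with 106 CPM on average, against 131 CPM in NC (−0.32 ± 0.10, edgeR adjusted p = 0.0208), and DSG2 (desmoglein 2) with 164 against 206 CPM (−0.33 ± 0.08, adjusted p = 0.00448). Over all tested genes 10.7% were called higher and 9.53% lower at H1R1. The changes of JUP and DSG2 were in the opposite direction to that of DSP at the same time. At H1R6 DSG2 was again lower (−0.48 ± 0.08, adjusted p = 0.000217), and at H1R18 JUP was higher (0.51 ± 0.12, adjusted p = 0.00360, all edgeR). At H1 0 of the 8 were called in edgeR (1 at an unadjusted p under 0.05). The shares over all tested genes at H1 were 3.43% higher and 1.77% lower. The median change of the 8 was −0.13 for H1, −0.07 for H1R1, −0.20 for H1R6 and −0.02 for H1R18.

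Of 17 intermediate filament genes 13 were tested. VIM (vimentin, a filament that PLEC, DSP and PPL bind) had 280.3 CPM on average at H1R1, against 204 CPM in NC (0.46 ± 0.08, edgeR adjusted p = 6.02e-05), and remained higher at H1R6 (0.26 ± 0.08, adjusted p = 0.0423) and H1R18 (0.31 ± 0.10, adjusted p = 0.0335). KRT8, a keratin of simple epithelia, was lower at H1R1 (−0.43 ± 0.15, adjusted p = 0.0351), whereas the keratin gene KRT10 was higher there (0.70 ± 0.20, adjusted p = 0.0132, both edgeR). NES was higher in the single H1R18 library (0.79 ± 0.20, edgeR adjusted p = 0.00652). At H1 0 of 13 were called in edgeR (2 at an unadjusted p under 0.05), where 3.43% of all tested genes were called higher and 1.77% lower. The H1R1 comparison with NC called 2 higher and 1 lower, near the shares over all genes (10.7% and 9.53%), with a median change of 0.12. Against NC, 1 was called higher and 0 lower at H1R6 (3% and 4.03% of all tested genes). At H1R18 2 were called higher and 0 lower (4.58% and 6.43%).

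The 7 hemidesmosome genes, the membrane partners of PLEC and of the epithelial DST isoform, gave 6 tested. LAMA3, a laminin chain, had 35.9 CPM on average at H1R1, against 51.6 CPM in NC (−0.53 ± 0.14, edgeR adjusted p = 0.00736), and ITGA6, an integrin chain, had 43.1 CPM at H1R18, against 24.1 CPM (0.83 ± 0.23, adjusted p = 0.0161). At H1 and at H1R6 0 of 6 were called in edgeR (0 and 1 at an unadjusted p under 0.05). Over all tested genes 3.43% were called higher and 1.77% lower at H1, and 3% and 4.03% at H1R6. The median change was 0.15 for H1, −0.12 for H1R1, −0.15 for H1R6 and −0.16 for H1R18.

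Among microtubule end-binding genes, the partners of MACF1 and DST, 15 of 17 were tested. CAMSAP2, which protects microtubule minus ends, had 128.5 CPM on average at H1, against 97.1 CPM in NC (0.40 ± 0.09, edgeR adjusted p = 0.00799), and 143 CPM at H1R1 (0.56 ± 0.09, adjusted p = 5.90e-05). MAPRE1, which encodes the plus-end protein EB1, was higher at H1R1 (0.30 ± 0.09, adjusted p = 0.0108) and H1R6 (0.27 ± 0.08, adjusted p = 0.0440). In the order H1, H1R1, H1R6 and H1R18, the list had 1, 2, 1 and 3 genes called higher, 0, 0, 0 and 1 called lower, and medians of 0.07, −0.04, 0.04 and 0.06. Over all tested genes the shares called higher were 3.43%, 10.7%, 3% and 4.58%, so that the 2 of 15 at H1R1 were near the background. The shares called lower were 1.77%, 9.53%, 4.03% and 6.43%.

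Of 18 actin linkers built on spectrin repeats or calponin-homology domains, modules also found in PLEC, DST and MACF1, 17 were tested. At H1R6 0 were called higher and 6 lower, with a median change of −0.20, among them FLNA with 658 CPM on average, against 835 CPM in NC (−0.34 ± 0.06, edgeR adjusted p = 0.000308) and SPTAN1 (−0.37 ± 0.07, adjusted p = 0.000892). Over all tested genes 3% were called higher and 4.03% lower at H1R6. In the earlier conditions the list's calls went both ways, with 1 higher and 1 lower at H1 (3.43% and 1.77% of all genes) and 2 higher and 3 lower at H1R1 (10.7% and 9.53%). At H1 these were SPTBN5, with 12.2 CPM on average, against 1.90 CPM in NC (2.64 ± 0.41, edgeR adjusted p = 4.31e-05), and ACTN2, with 23.7 against 51.7 CPM (−1.12 ± 0.16, adjusted p = 1.66e-05). Among the plakins the H1R6 changes against NC were −0.30 for PLEC, −0.10 for MACF1 and 0.22 for DST. In the single H1R18 library 0 of the 17 were called lower against NC and 2 higher (6.43% and 4.58% of all tested genes). Against H1R6 5 were higher and 0 lower (6.28% and 7.65%).

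Of 9 linkers at the nuclear envelope, to which PLEC is joined through nesprins, all were tested. SYNE1, a nesprin of spectrin repeats, had 18.4 CPM on average at H1R1, against 36.0 CPM in NC (−0.97 ± 0.19, edgeR adjusted p = 0.000480), while SYNE2 had 254 against 265 CPM (−0.06 ± 0.08, adjusted p = 0.625). The H1R1 comparison with NC called 1 gene of the list higher and 2 lower (10.7% and 9.53% of all tested genes). The H1R6 comparison called 0 higher and 1 lower (3% and 4.03%), and the H1R18 comparison 1 higher, SUN2, and 2 lower, LMNA and LMNB1 (4.58% and 6.43%). At H1 0 of 9 were called in edgeR (1 at an unadjusted p under 0.05), where 3.43% of all tested genes were called higher and 1.77% lower. LMNB2 (lamin B2) was higher at H1R1 (0.32 ± 0.07, adjusted p = 0.00107), and LMNB1 was lower at H1R6 (−0.28 ± 0.08, adjusted p = 0.0347) and at H1R18 (−1.05 ± 0.11, adjusted p = 5.67e-08). Of 12 cornified envelope genes, the setting in which EVPL and PPL are best known, 1 was tested, TGM1, a crosslinking enzyme, with 4.44 CPM on average at H1, against 2.05 CPM in NC (1.05 ± 0.57, adjusted p = 0.356).

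**Figure D5:**
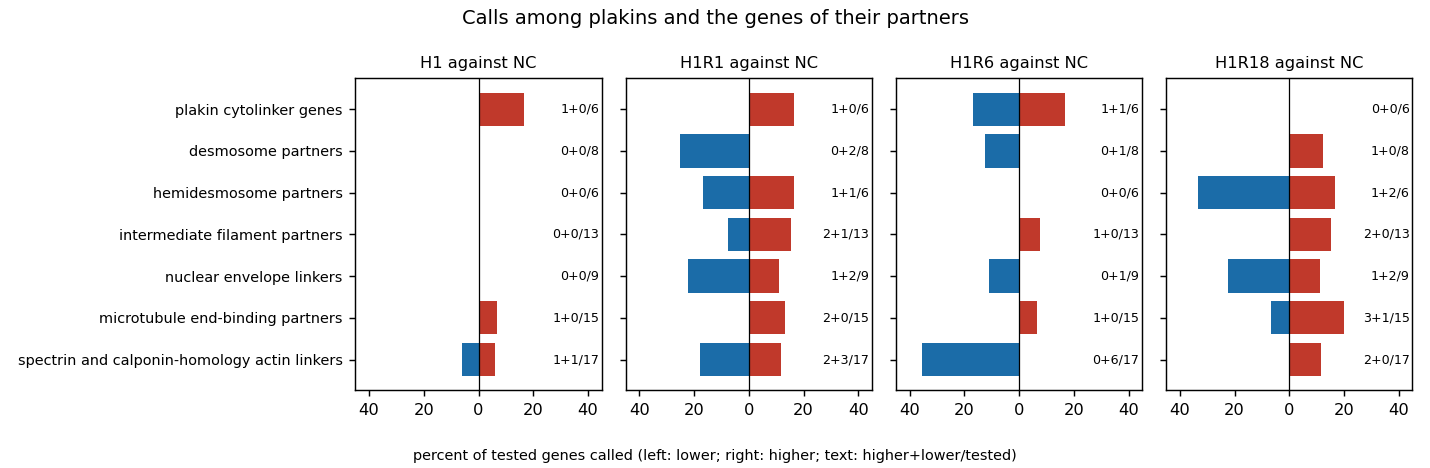
Percent of the tested genes of each list that were called lower (to the left, blue) or higher (to the right, red) against NC in each condition, with the numbers called higher and lower and the number tested at the right edge. The plakin genes had 1 call in H1, 1 in H1R1, 2 in H1R6 and 0 in H1R18, and the actin linkers had 6 of 17 lower at H1R6.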

How the data were processed

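The authors deposited read counts per gene from rRNA-depleted total RNA. Per the file header and the submitters' processing notes these were made with featureCounts 2.0.2 (annotation Ensembl 104, GRCh38) after trimming with cutadapt 4.1 and alignment with HISAT2 2.2.1, without strand, each read of a pair counted, and reads of several sites or genes not counted. DESeq2 1.38.3 is also named, but which test it was used for is not given in the sources used here.

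Groups came from the sample labels. Calculations used R 4.3.3, edgeR 4.0.16 and DESeq2 1.42.0. The filter (filterByExpr, minimum count 10, minimum total 15) left 21139 genes. All 9 libraries entered 1 quasi-likelihood fit with TMM scaling and 1 coefficient per condition, with Benjamini-Hochberg adjustment across every tested gene. SE was the log2 fold change divided by the square root of F. The common biological coefficient of variation was 0.0905. The fit was tested on simulated data. Symbols were found for 60463 gene identifiers (99.7%), and transcript lengths came from GENCODE 29. Likeness between genes was Pearson's r of log2 CPM. Intervals of ratios used read pairs (counts halved) and cover counting error only, since PCR copies are not independent molecules. Floors are 3 counts per library or condition.

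Replicates of a condition differed by more than counting noise (chi-square per degree of freedom 1.71 to 2.35 on counts halved to read pairs), so none was treated as a library deposited in duplicate. The members and lists were chosen with earlier results of these data known. Named were all 6 members, EPPK1, EVPLL, overlapping or adjoining genes, the 3 genes most like each member, and from each list at most the 4 highest members and the 2 called with the smallest adjusted p. Some genes of the lists are not reported here. There were 18 alternatives: other scalings, filters and tools, other sample sets, a replicate block, and each replicate left out.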

Additional observations from a re-analysis of the deposited data

Results flagged for a closer look

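DSP was singled out in 2 steps because its level differed between successive conditions by a test of that difference itself. Between H1R1 and H1 it was higher by 0.31 on the log2 scale (519 and 473 CPM in H1R1, against 381 and 420.0 CPM in H1, higher in both libraries, edgeR adjusted p = 0.00619). Between H1R18 and H1R6 the log2 fold change was −0.37 (383 CPM in the single H1R18 library, against 507 and 487 CPM in H1R6, edgeR adjusted p = 0.00678). DSP-AS1, which begins 278 bases before DSP on the other strand, had at most 20 counts in any library.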

How the results depend on the processing

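Over the 18 alternatives the direction of every called plakin change was kept. Of 712 values of single members, 687 stayed on their side of the threshold, 15 gained a call and 10 lost one. PPL made the number of members called higher at H1R1 against NC 2 with RLE scaling (adjusted p = 0.0492), with at least 10 counts in every library (0.0462) and with a replicate block (0.0331). PLEC made the number called lower at H1R1 1 with scaling by library size only. DST made the number called higher at H1R6 against NC 2 with library size only (0.0439), no low-count filter (0.0452), at least 10 counts in every library (0.0346) and counts halved to read pairs (0.0431). DST also made the number called higher at H1R6 against H1R1 1 with library size only (0.24, 0.0265; all edgeR). The cause was not tested. DESeq2 made the same calls among members.

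Leaving out 1 replicate at a time, members called higher ranged from 0 to 1 at H1, 0 to 2 at H1R1, 0 to 1 at H1R6 and 0 to 1 at H1R1 against H1, and members called lower from 0 to 1 at H1R1, 0 to 1 at H1R6 and 0 to 1 at H1R6 against H1R1. The last was PPL without the first H1R6 library (a change of −1.31). The ranges that follow cover every kind of alternative, not only replicates left out. Over all genes the counts called higher and lower ranged from 350 to 863 and 143 to 412 at H1 (main 726 and 374), 1385 to 2290 and 912 to 2487 at H1R1 (2254 and 2015), 272 to 810 and 309 to 896 at H1R6 (635 and 851), 571 to 1231 and 816 to 1397 at H1R18 (968 and 1359), 581 to 1495 and 372 to 1342 for H1R1 against H1 (1343 and 1074), 651 to 1946 and 953 to 1951 for H1R6 against H1R1 (1360 and 1888), and 760 to 1634 and 1009 to 1979 for H1R18 against H1R6 (1328 and 1618). With library size only, the calls at H1R1 were 1821 higher and 2487 lower, those of H1R1 against H1 1028 and 1342, and those of H1R6 against H1R1 1946 and 1177. Without a low-count filter those at H1R6 were 773 and 676. Shared replicate numbers did not pair the libraries (correlations of −0.0362 to 0.0443), and apart from PPL at H1R1 the block changed no member's call. Depth limits EVPL, and H1R18 has no replicate.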
